A study of Homo sapiens with 6 samples.

Results

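Adenylate cyclases and phosphodiesterases set the level of cyclic AMP (cAMP) and cyclic GMP (cGMP) in a cell. The genes described here were those whose symbol in the platform annotation is ADCY plus a number, or PDE plus a number and at most 1 letter. They numbered 33 of 18132 genes measured, 10 cyclase genes and 23 phosphodiesterase genes. PDE1A and PDE4C were not analysed here. Total RNA of A375, a human melanoma cell line with mutant BRAF, was hybridised to 6 Affymetrix arrays. The control group was 3 arrays of A375 cells, and the knockdown group was 3 arrays of the same line stably expressing a short hairpin RNA (shRNA) that targets the kinase MAP4K5. Neither group was treated, and both grew in the same serum-containing medium. The labels call the arrays biological replicates without saying how the cultures were kept apart, and a p-value here covers no more than the spread among them. The sources used here do not say how many clones or hairpins the knockdown line holds, or whether control cells carried a vector. Effects of hairpin or line selection and those of losing MAP4K5 cannot be told apart.

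Cyclases are switched on by the stimulatory G protein alpha subunit downstream of receptors such as MC1R, and they differ in their response to calcium, inhibitory G proteins and G beta-gamma. Phosphodiesterases end the signal, and their families differ in whether they cleave cAMP, cGMP or both. In melanocytes cAMP acts through protein kinase A (PKA) and CREB to raise the transcription factor MITF and pigment synthesis, and PDE4 enzymes limit this response. Oncogenic BRAF is known to lower PDE5A in melanoma cells.

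Levels are deposited RMA intensities on a linear scale, with array medians between 4.85 and 4.94. An intensity belongs to 1 probe set and gives no ranking between genes. The targeted gene, MAP4K5, read 77.7, 78.1 and 76.3 in controls 1, 2 and 3 and 19.7, 18.8 and 20.3 in the knockdown arrays, a log2 fold change of -1.98 ± 0.08 (SE). The controls were not alike: principal component 1 (63.9% of the variance) put control 2 at -0.32, between the other controls at -29.94 and -28.19 and the knockdown arrays at 17.88 to 21.04. Of the melanocyte markers, MITF, SOX10, S100B and TFAP2A reached the intensity of the median gene, 8.68, while the pigment genes MLANA, PMEL, TYR and TYRP1 lay between 2.34 and 3.90 on every array. SOX10 (-0.54) and S100B (-1.31) fell and MITF rose (0.99). The 6 measured keratinocyte markers summed to between 126 and 149.5 in controls and to between 174.8 and 190.6 in knockdown cells. KRT10 made up most of each sum, at 108.6 to 129.7 in controls and 148.4 to 164.4 in knockdown cells. KRT10 and KRT14 were called higher. KRT1 and KRT5 were dim and not called, and CDH1 and DSG3 lay near the lowest intensities. Of 6 immune markers 1, LYZ, was called higher, with PTPRC at 2.15 to 2.42 on every array. The immune sums were 58 to 70.2 in controls and 62.9 to 66.1 in knockdown cells. Most of each sum came from CD68, at 41.4 to 55.7 and 42.5 to 44.8 (-0.17, not called). Of 7 fibroblast markers (sums 27.4 to 28.2 and 24.8 to 25.8) and 5 endothelial markers (19 to 20.7 and 19.9 to 23.9), 0 were called by limma. The part of these shifts in the results below was not tested.

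Because cAMP acts on promoters largely through the cAMP response element (CRE) and MAP4K5 lies upstream of JNK, whose main nuclear target is AP-1, the promoter windows of the members were searched for both motifs, and also for the short CRE core and the E-box bound by MITF and related factors. The windows run from 250 bases before to 50 after each RefSeq start (GRCh38.p14). The 8-base CRE, TGACGTCA, was searched on both strands, and so were AP-1, TGANTCA, the short core, TGACG, which every full CRE contains, and the E-box, CACGTG. A CRE was found in 2 of 64 windows of 26 matched members (3.12%), against 2.26% of 22197 windows of all coding genes. The 2 sites are printed with the element in capitals, as the only members with a full CRE in a window. They lie at chr19:10416754-10416793 and chr6:135851530-135851569, both on the plus strand, and the element starts at -3 and -155 from the start site.
PDE4A: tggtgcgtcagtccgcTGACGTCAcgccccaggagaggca
PDE7B: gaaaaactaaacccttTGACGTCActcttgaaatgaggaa
An AP-1 match was found in 8 of the 64 windows (12.5%), belonging to 7 members, against 6.15% of all windows. The short core was found in 13 windows (20.3%), against 27.9% of all windows, and the E-box in 3 (4.69%), against 8.34%, those of PDE12, PDE8A and PDE8B. The windows of the 3 genes that passed the test are printed whole, since the results turn on these genes: the single window of ADCY7 (chr16:50266301-50266600, plus strand) and the most upstream windows of PDE4B (chr1:65792260-65792559, plus strand) and PDE8B (chr5:77086465-77086764, plus strand). Capitals mark AP-1, whose match in ADCY7 starts at -6, and 0 matches to CRE or AP-1 were found in the 6 windows of PDE4B or the 4 of PDE8B. The arrays do not tell which start was used, and a match is a description of letters only.
ADCY7: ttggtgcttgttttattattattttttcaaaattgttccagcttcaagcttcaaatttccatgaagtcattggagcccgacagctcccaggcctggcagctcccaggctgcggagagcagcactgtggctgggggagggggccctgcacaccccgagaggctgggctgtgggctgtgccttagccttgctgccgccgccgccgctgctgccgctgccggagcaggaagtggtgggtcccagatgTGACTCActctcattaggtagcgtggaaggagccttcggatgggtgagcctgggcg
PDE4B: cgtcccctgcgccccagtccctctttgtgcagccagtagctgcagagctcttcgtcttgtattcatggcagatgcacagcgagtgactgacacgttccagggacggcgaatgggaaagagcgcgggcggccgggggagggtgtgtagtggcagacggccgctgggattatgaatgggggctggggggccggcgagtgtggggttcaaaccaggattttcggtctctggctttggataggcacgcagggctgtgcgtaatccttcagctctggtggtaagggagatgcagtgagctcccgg
PDE8B: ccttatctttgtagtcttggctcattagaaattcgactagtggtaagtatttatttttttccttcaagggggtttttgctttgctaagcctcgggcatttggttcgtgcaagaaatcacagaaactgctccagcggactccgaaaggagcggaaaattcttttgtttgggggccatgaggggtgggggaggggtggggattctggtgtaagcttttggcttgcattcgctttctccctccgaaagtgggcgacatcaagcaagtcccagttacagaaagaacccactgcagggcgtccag

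In knockdown cells the brightest probe sets of the cAMP-specific phosphodiesterase genes PDE4B and PDE8B rose 1.69-fold each. That of the cyclase gene ADCY7 fell 1.40-fold. Other probe sets of PDE4B and PDE8B gave smaller values, and those of ADCY7 the opposite sign. These 3 of 33 members (9.09%) passed limma's test at an adjusted p under 0.05 over all genes, where 7.83% of all 18132 genes did, so the members' share was near the background. By direction, 2 rose against 3.7% of all genes, and 1 fell against 4.13%. The groups did not overlap in 11 members (33.3%), 7 higher and 4 lower in knockdown cells, against 28.1% of all genes (14.9% higher, 13.2% lower). The median log2 fold change was 0.09 over the members and 0.01 over all genes, and the median size of change 0.14 and 0.12. Control 2 lay nearer the mean of the knockdown arrays than that of the other controls in 15 members (45.5%) and in 54.7% of all genes.

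In the fit without control 2, 7 members (21.2%) passed, against 20.6% of all genes. PDE4B, PDE8B, PDE2A and PDE12 were the 4 called higher (10.5% of all genes), and ADCY7, PDE4D and PDE9A the 3 called lower (10.1%). Leaving out another array lowered the calls over all genes. PDE4B was the 1 member called higher without control 1 (1.3% of all genes higher, 1.58% lower) or without control 3 (1.48% and 1.63%), and 0 were called lower. PDE4B and PDE8B passed without knockdown 1 (0.789% and 0.998%). Without knockdown 2 (0.916% and 1.13%) or knockdown 3 (0.844% and 1.32%), 0 members were called by limma.

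PDE9A joined ADCY7 among the members called lower under 6 other settings. They were the intensity trend (4.55% of all genes lower), repeated quantile normalization (4.29%), the shift to a common median (4.2%), the test without the lowest 25% of genes (5.85%), array weights and the replicate block. Array weights called the same 7 members as the fit without control 2 (8.64% of all genes higher, 8.47% lower). PDE12 joined PDE4B and PDE8B as the 3 members called higher with the intensity trend (4.21% of all genes higher). PDE12 and PDE4B were the 2 called higher without the lowest 50% of genes (9.02%), where 13 members were tested, and without probe set IDs of the endings _x_at and _s_at (3.05%). The replicate block called PDE2A and PDE4B higher (2.86% of all genes higher, 3.7% lower). With the mean of each gene's probe sets, 0 members were called by limma, against 3.12% higher and 3.23% lower over all genes.

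**Figure D1:**
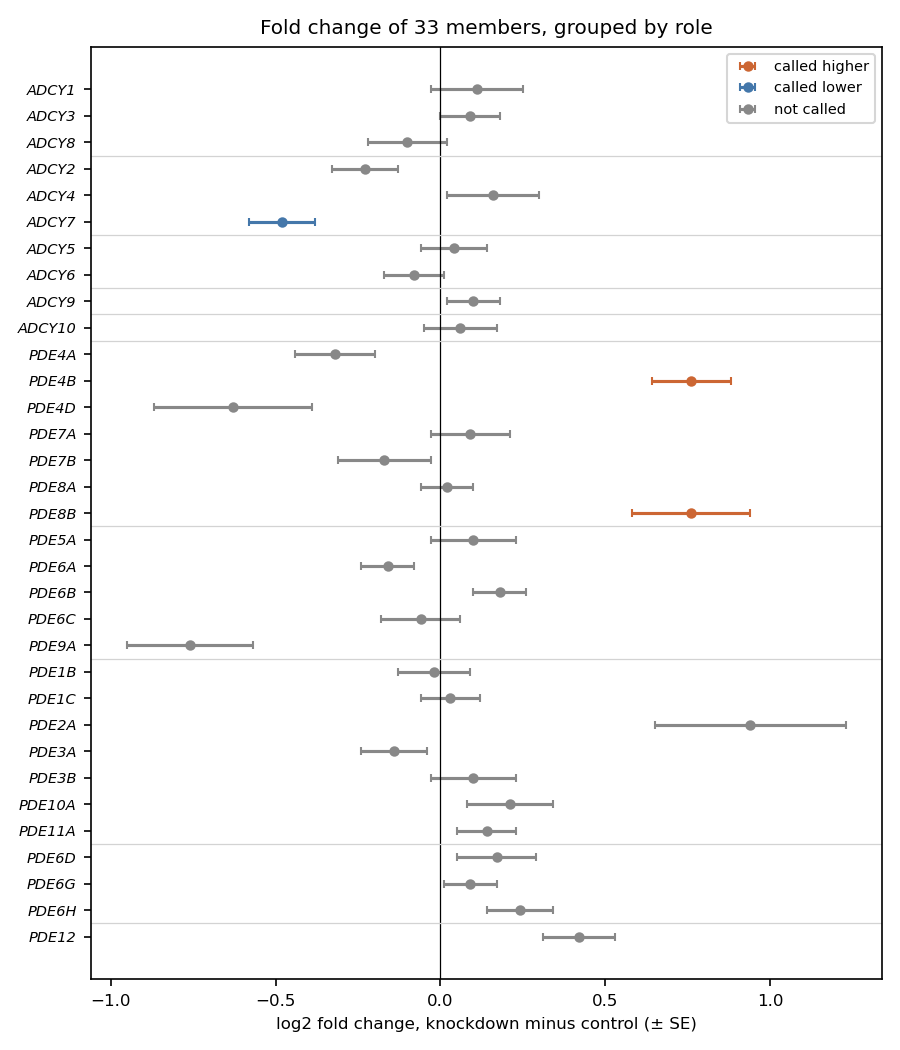
Log2 fold change, knockdown minus control, of the 33 members with the standard error of the fit over 6 arrays; horizontal lines separate roles (cyclase classes above, then cAMP-specific, cGMP-specific and dual phosphodiesterases, PDE6 small subunits and PDE12), and colours mark genes at an adjusted p under 0.05. PDE4B and PDE8B lie at 0.76 and ADCY7 at -0.48, while PDE2A, at 0.94, has the widest bar and was not called.

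Among the cyclases, ADCY7 was the 1 of 10 that passed the test (10%, near the 7.83% of all genes). ADCY7 belongs to the transmembrane cyclases stimulated by G beta-gamma and is known from blood and immune cells. Its intensity was 34.7, 30.2 and 36.5 in controls 1, 2 and 3 and 22.6, 23.2 and 26.6 in the knockdown arrays. All knockdown arrays lay below all controls, with control 2 the lowest control. The control mean was 33.8 ± 3.21 and the knockdown mean 24.1 ± 2.13 (SD, n = 3 per group), a log2 fold change of -0.48 ± 0.10 (SE, limma adjusted p = 0.0307). The call was held by 1 of the 6 fits with an array left out, that without control 2 (-0.56, limma adjusted p = 0.00496). Without control 1, control 3 or knockdown 1, 2 or 3 the values were -0.46, -0.43, -0.44, -0.46 and -0.56, with limma adjusted p from 0.0611 to 0.135.

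A second probe set of ADCY7 at like intensity did not follow the first. It read 26.2, 25.6 and 26.5 in controls and 29.6, 26.8 and 27.4 in knockdown arrays, which is a log2 fold change of 0.10 ± 0.08 (SE). The third, near 3 on every array, stood at 0.05. The 2 brighter probe sets of this gene therefore gave values of opposite sign, and the mean over its probe sets was -0.11 (limma adjusted p = 0.452).

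The other cyclases that reached the median gene in intensity stayed within narrow intervals. ADCY3, a calcium-responsive cyclase best known from olfactory neurons and cilia, read 91.9, 103 and 88.9 in controls and 97.2, 103.2 and 101.3 in knockdown arrays, and the groups overlapped. Its log2 fold change was 0.09, with a 95% interval of -0.11 to 0.29. ADCY6, which is inhibited by calcium and by inhibitory G proteins, ran from 24.6 to 28.3 in controls and from 23.0 to 26.6 in knockdown arrays, with an interval of -0.30 to 0.14. ADCY9, the forskolin-insensitive cyclase, read 10.5, 10.9 and 10.6 in controls and 11.4, 11.1 and 12 in knockdown arrays. These groups did not overlap, but the log2 fold change of 0.10 (-0.07 to 0.28) was not called, and its other probe sets, at intensities near 3, stood at -0.08 and -0.04. The remaining cyclases, ADCY1, ADCY2, ADCY4, ADCY5, ADCY8 and the soluble, bicarbonate-responsive ADCY10, lay below the median gene on every array. None of these 6 was called, and their log2 fold changes ran from -0.23 for ADCY2 to 0.16 for ADCY4.

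**Figure D2:**
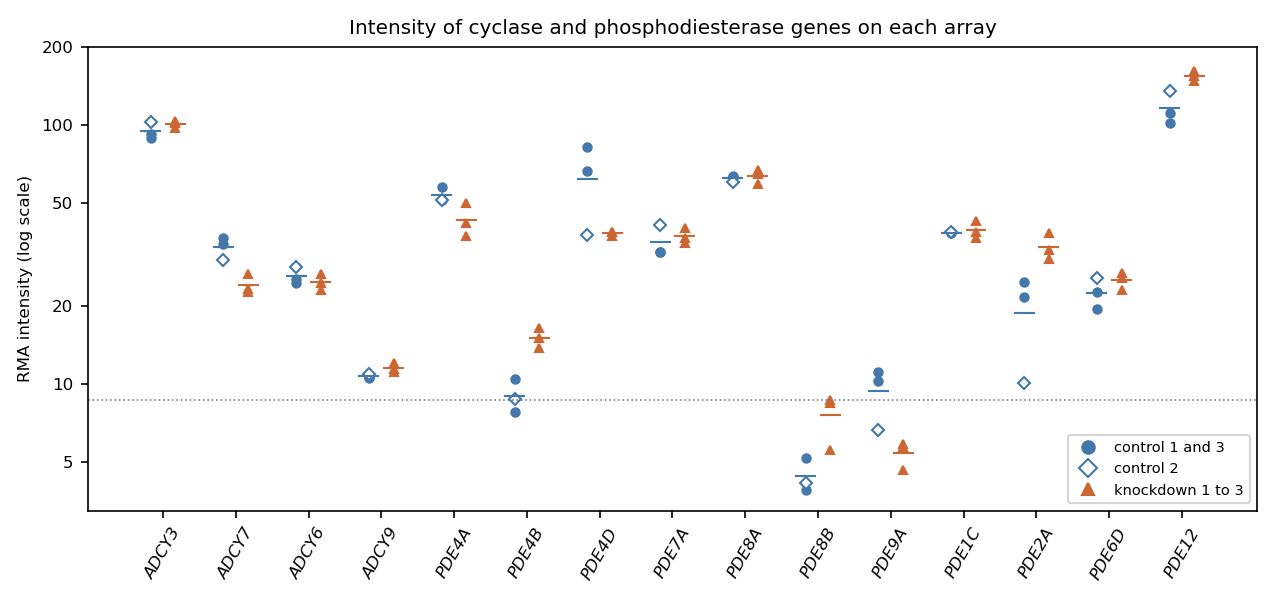
RMA intensity (log scale) on each array for the 14 members whose higher group mean reached that of the median gene (dotted line, 8.68), and for PDE8B; circles are controls 1 and 3, open diamonds control 2, triangles the knockdown arrays and short lines the group means. PDE4B triangles lie above all its controls and ADCY7 triangles below, while the PDE4D diamond lies with the triangles.

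Of the 7 cAMP-specific phosphodiesterase genes measured, 2 rose (28.6%, against 3.7% of all genes called higher) and 5 were not called. The median log2 fold change of the 7 was 0.02, and their number is too small for the share to be a result about the class. PDE4B is a rolipram-sensitive PDE4 that restrains cAMP signals in immune and brain cells. It read 7.82, 8.78 and 10.4 in controls and 13.8, 16.5 and 15.0 in knockdown arrays. The lowest knockdown array lay above the highest control. Means were 8.98 ± 1.28 and 15.1 ± 1.35 (SD, n = 3 each), and the log2 fold change was 0.76 ± 0.12 (SE, limma adjusted p = 0.0104). PDE4B kept its call in 4 of the 6 fits with an array left out, at 0.66 to 0.86, and narrowly lost it without knockdown 2 (0.69, limma adjusted p = 0.0576) and knockdown 3 (0.76, limma adjusted p = 0.0546). Its difference held against each control alone, at 0.95, 0.78 and 0.54 for controls 1, 2 and 3. The other 3 probe sets of PDE4B, all below 4.1 in intensity, stood at 0.05 to 0.13 and were not called, and the mean over the probe sets was 0.25 (limma adjusted p = 0.0801).

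PDE8B, a high-affinity cAMP phosphodiesterase known from the adrenal and thyroid glands, read 5.16, 4.14 and 3.90 in controls and 5.54, 8.68 and 8.43 in knockdown arrays. Knockdown 1 lay just above control 1, and the other knockdown arrays were clearly higher. The log2 fold change was 0.76 ± 0.18 (SE, limma adjusted p = 0.0428). Its group means lay below that of the median gene. The call held without control 2 (0.72) and without knockdown 1 (0.97), and was lost without control 1 (0.88), control 3 (0.68), knockdown 2 (0.65) or knockdown 3 (0.67). Both probe sets of PDE8B that carried the difference have IDs ending in _s_at, which can bind several transcripts. The second stood at 0.42, and the probe set without that ending at 0.13 (limma adjusted p = 0.703 over the genes left).

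PDE4D and PDE4A stood on the other side of 0 from PDE4B, without passing the test. PDE4D, the PDE4 best known from heart and airway, read 66.4, 37.7 and 82.0 in controls and 38.6, 38.5 and 37.2 in knockdown arrays. Controls 1 and 3 were high, and control 2 was level with the knockdown arrays, so the groups overlapped. The log2 fold change was -0.63 ± 0.24 (SE, limma adjusted p = 0.164). Without control 2 it was -0.95 (limma adjusted p = 0.000697), and against control 2 alone it was 0.02. In a second PDE4D probe set control 2 also lay within the knockdown range, at 17, 7.43 and 11.6 in controls and 8.94, 6.61 and 7.62 in knockdown arrays (-0.57). Of the 7 probe sets of PDE4D 6 had a negative value and 0 were called.

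PDE4A holds the CRE printed above in 1 of its 5 windows. It read 51.3, 51.5 and 57.5 in controls and 41.8, 37.1 and 50.1 in knockdown arrays. The groups did not overlap, though knockdown 3 lay close to the controls. The log2 fold change was -0.32 ± 0.12 (SE, limma adjusted p = 0.148), and it ran from -0.44 to -0.22 with an array left out. The 6 other probe sets of PDE4A had intensities under 5 and values from -0.10 to 0.19.

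PDE7A and PDE8A, both insensitive to rolipram, showed no difference past their spread. PDE8A ran from 60.3 to 63.6 in controls and from 58.9 to 66.8 in knockdown arrays, a log2 fold change of 0.02 with a 95% interval of -0.17 to 0.22, and a second probe set stood at 0.01. PDE7A ran from 32.2 to 41.2 and from 35.0 to 39.9, with an interval of -0.18 to 0.35 and control 2 the highest array. PDE7B, the other member with a CRE, lay between 2.37 and 3.57 on all arrays, and its value was -0.17.

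The phosphodiesterases that cleave cGMP alone, or both nucleotides, gave 0 calls among 12 genes, where 7.83% of all genes were called. With so few genes this count is no result about these classes. PDE9A, a high-affinity cGMP phosphodiesterase, came closest. It read 10.3, 6.61 and 11.1 in controls and 5.88, 4.64 and 5.71 in knockdown arrays. All knockdown arrays lay below the controls, and control 2 lay between the other controls and the knockdown arrays. The log2 fold change was -0.76 ± 0.19 (SE, limma adjusted p = 0.0503). Without control 2 it was -0.99 (limma adjusted p = 0.00101), and against control 2 alone it was -0.30. This gene had 1 probe set.

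PDE2A, a cAMP and cGMP phosphodiesterase that cGMP itself activates, had the largest fold change of the members, 1.92-fold. It read 21.6, 10.1 and 24.7 in controls and 32.9, 30.4 and 38.2 in knockdown arrays. The groups did not overlap, and control 2 was the lowest of all arrays. The log2 fold change of 0.94 ± 0.29 (SE) was not called (limma adjusted p = 0.094). Without control 2 the fold change shrank to 0.54 and passed (limma adjusted p = 0.0138), whereas against control 2 alone it was 1.73. Here control 2 lay beyond controls 1 and 3, away from the knockdown arrays, unlike its place for PDE4D and PDE9A. The other PDE2A probe set, near 4 in intensity, stood at -0.14.

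PDE1C, which calcium and calmodulin activate, read between 38.2 and 38.5 in controls and between 36.7 and 42.7 in knockdown arrays, with an interval of -0.16 to 0.23. A second PDE1C probe set differed: it read 17.9, 13.9 and 17.8 in controls and 11.4, 14.3 and 12.8 in knockdown arrays (-0.36, limma adjusted p = 0.165 over all probe sets). PDE5A, the sildenafil target, lay between 4.02 and 5.53 on all arrays, below the median gene, with an interval of -0.19 to 0.39. PDE3A, PDE3B, PDE10A, PDE11A and PDE1B were also dim, with values from -0.14 to 0.21. The catalytic subunits of the photoreceptor enzyme, PDE6A, PDE6B and PDE6C, lay near 3 or below on every array, at -0.16, 0.18 and -0.06. A dimmer PDE6B probe set read 2.03, 2.09 and 2.18 in controls and 2.64, 3.19 and 2.66 in knockdown arrays. It stood at 0.43 (limma adjusted p = 0.0534 over all probe sets), and the remaining PDE6B probe sets at 0.01 and -0.14.

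The last 4 members do not encode a cyclic nucleotide phosphodiesterase of their own. PDE6D, which carries prenylated proteins such as RAS family members between membranes, ran from 19.4 to 25.6 in controls and from 23.1 to 26.9 in knockdown arrays, and its 2 probe sets stood at 0.17 and 0.42 without a call. The inhibitory subunits PDE6G and PDE6H were dim, at 0.09 and 0.24. PDE12, a mitochondrial enzyme that trims poly(A) tails and degrades 2-5A, read 102, 135.2 and 111.1 in controls and 154, 147.7 and 162.1 in knockdown arrays. The groups did not overlap, and control 2 was the highest control. The log2 fold change was 0.42 ± 0.11 (SE, limma adjusted p = 0.061). Without control 2 it was 0.54 (limma adjusted p = 0.00373). PDE12 also passed with array weights (0.48), and at 0.42 with the intensity trend (limma adjusted p = 0.045), without the lowest 50% of genes (0.0438) and, read by another probe set, without IDs ending in _x_at or _s_at (0.0325). It did not pass in the other fits, among them the mean of its probe sets (0.30, limma adjusted p = 0.0804). A second PDE12 probe set, at 36.8, 42.2 and 41.1 in controls and 55.4, 54.3 and 50.9 in knockdown arrays, also gave 0.42, and passed in the test per probe set (limma adjusted p = 0.0407).

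**Figure D3:**
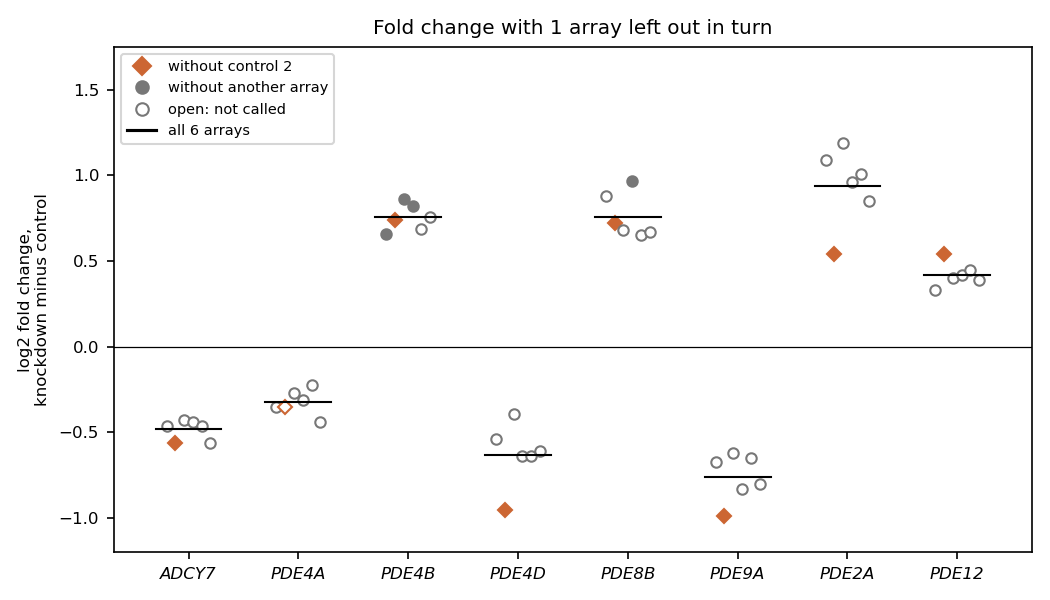
Log2 fold change, knockdown minus control, of 8 members when 1 of the 6 arrays is left out in turn; diamonds leave out control 2, circles another array, filled marks passed the test, open marks did not, and lines give the value with all arrays. Leaving out control 2 moved PDE4D to -0.95 and PDE2A to 0.54, and PDE4B stayed between 0.66 and 0.86.

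In all, 18 dim members that were not called had intensities between 2.01 and 5.58, log2 fold changes between -0.23 and 0.24, and overlapping groups in 15 of 18. Groups did not overlap in 3 of these 18 (16.7%), against 28.1% of all genes, and the 18 leave out by construction the dim member that was called. The members were read by 88 probe sets, of which 3 (3.41%) passed in the test per probe set, 1 each of ADCY7, PDE4B and PDE12, against 4.48% of 44988 probe sets. Of 23 members with more than 1 probe set, 16 had probe sets on both sides of 0. Only 21 of the 88 probe sets reached the median gene in intensity.

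**Figure D4:**
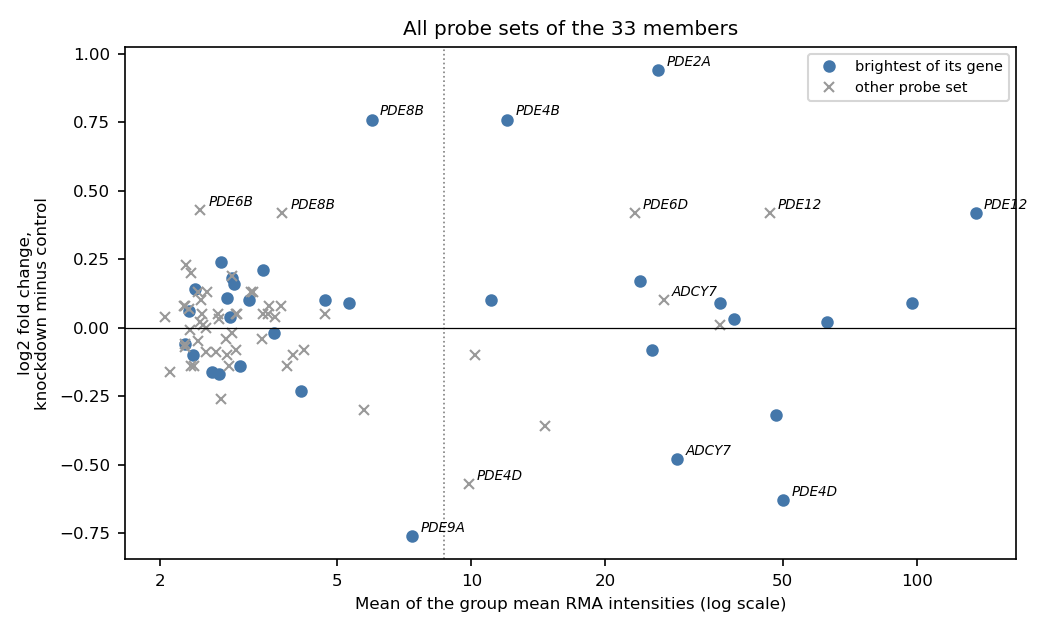
Log2 fold change, knockdown minus control, of the 88 probe sets of the members against the mean of the 2 group mean RMA intensities (log scale); filled circles are the brightest probe set of a gene, crosses the others, and the dotted line is the median gene at 8.68. The 2 ADCY7 probe sets right of the line lie at -0.48 and 0.10, and those of PDE12 both at 0.42.

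The other genes of the pathway were taken from 9 lists with 83 genes, 73 of them measured. Of these, 5 rose and 2 fell (9.59%, against 7.83% of all genes), with a median log2 fold change of 0.05. Without control 2, 10 rose and 7 fell, together 23.3% against 20.6% of all genes. Without any other array 1 or 2 rose, against 0.789% to 1.48% of all genes, and 0 or 1 fell, against 0.998% to 1.63%. Each list alone is too short for its count of calls, beside 7.83% of all genes, to be read as a result about the list. The 7 G protein alpha subunits gave 0 calls: GNAI1, an inhibitory subunit, had the smallest p, at 0.33 ± 0.11 (SE, limma adjusted p = 0.107). The stimulatory subunit GNAS read 1826, 1735.1 and 1891.4 in controls and 1650.1, 1620.4 and 1512.6 in knockdown arrays, a value of -0.19 that was not called.

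Of 7 receptors coupled to the stimulatory G protein, 1 rose (14.3%, against 3.7% of all genes called higher). PTGER4, a prostaglandin E2 receptor, read 5.16, 11.1 and 5.10 in controls and 14.8, 14.8 and 14.2 in knockdown arrays, with control 2 between the others (1.14 ± 0.27 SE, limma adjusted p = 0.0397). Its call held without control 2 (1.51) and was lost without any other array (0.95 to 1.16), and when IDs with the endings _x_at and _s_at were left out, PTGER4 stood at 0.01. The melanocortin receptor MC1R ran from 7.66 to 9.65 in controls and from 6.03 to 7.07 in knockdown arrays, not overlapping, at -0.39 (limma adjusted p = 0.0706). Of 7 guanylate cyclase and natriuretic receptor genes, 1 was called (14.3%, against 7.83% of all genes). This was GUCY1A1, a subunit of the nitric oxide receptor guanylate cyclase (0.48 ± 0.10 SE, limma adjusted p = 0.0295), at intensities of only 2.46 to 4.03. Its call was lost without any 1 array but control 2 (0.42), and the mean of its probe sets was 0.02.

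Downstream of cAMP, PKIB, an inhibitor of PKA, was the 1 of 10 PKA genes called (10%, against 7.83% of all genes). It read 4.70, 9.42 and 4.58 in controls and 47.3, 43.2 and 44.5 in knockdown arrays, a log2 fold change of 2.94 that was called in all 6 fits with an array left out. Of the other PKA inhibitors, PKIG ran from 43.9 to 58.6 in controls and from 39 to 43.5 in knockdown arrays, without overlap. Its value of -0.34 was not called, and PKIA stood at 0.01. The catalytic subunits PRKACA (0.17) and PRKACB (-0.29) and the regulatory subunits were not called. Among 13 anchoring proteins 1 was called (7.69%, against 7.83% of all genes). AKAP7, which tethers PKA at membranes, fell by 0.67 ± 0.10 on the log2 scale (SE, limma adjusted p = 0.00854), from 24.6, 24.3 and 30.1 to 16, 16.7 and 16.7. It kept its call in 5 of 6 such fits and narrowly lost it without knockdown 1 (-0.65, limma adjusted p = 0.0549), and the mean of its probe sets was -0.33, still called. The 10 other cyclic nucleotide effectors gave 0 calls, with POPDC3, a cAMP-binding membrane protein, at -0.21. The 7 measured CREB factors and coactivators also gave 0, with the coactivator CRTC3 at -0.33 (limma adjusted p = 0.0791).

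Of 10 CREB target genes, 1 rose and 1 fell (20% together, against 7.83% of all genes), too few for a result about the list. MITF read 50.6, 79.4 and 52.8 in controls and 121.7, 115.7 and 117.8 in knockdown arrays (0.99 ± 0.16 SE, limma adjusted p = 0.0114), and lost its call without any 1 knockdown array (0.97 to 1.01). The nuclear receptor NR4A1 fell from 35.7, 25 and 29.4 to 20.2, 20 and 17.3 (-0.63 ± 0.14 SE, limma adjusted p = 0.0295). Its call was lost without any 1 array but control 2 (-0.76), and NR4A1 was also not called with the mean of its probe sets (-0.28, limma adjusted p = 0.0635). ABCC5, an exporter of cyclic nucleotides, rose (0.62 ± 0.11 SE, limma adjusted p = 0.0149) and the cAMP exporter ABCC4 stood at 0.01. ABCC5 kept its call without control 2 (0.68) or knockdown 2 (0.72) and lost it without each other array (0.56 to 0.63). The mean of its probe sets was 0.13.

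**Figure D5:**
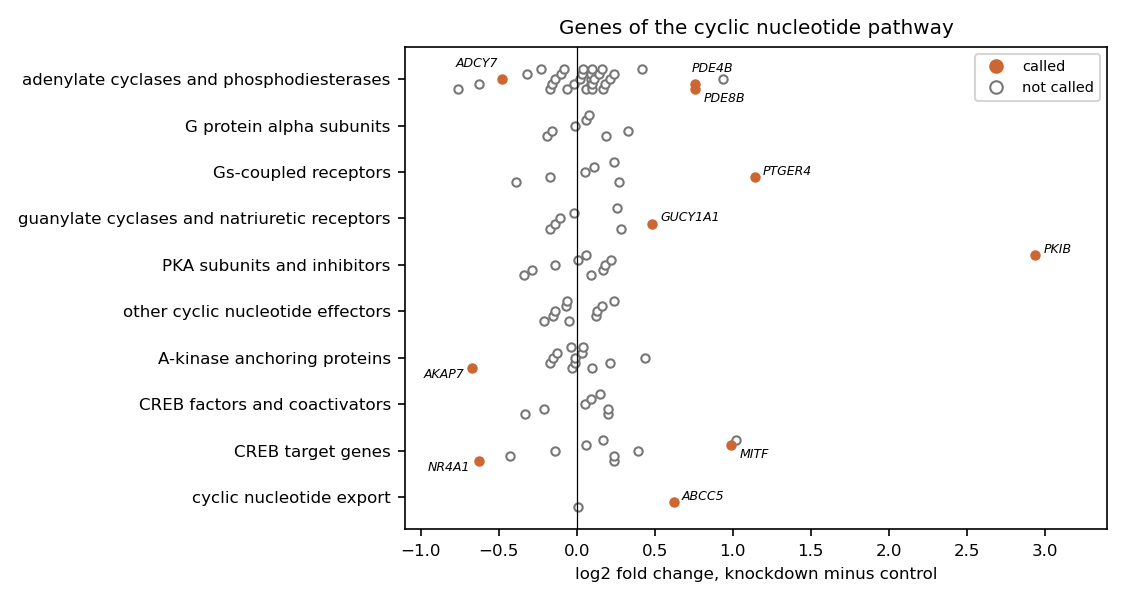
Log2 fold change, knockdown minus control, of each measured gene in the member set (top) and in 9 lists of the pathway; filled circles passed the test and are named, open circles did not. PKIB, at 2.94, lies apart from the other genes, and the G protein, effector and CREB factor lists hold 0 filled circles.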

How the data were processed

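The authors deposited a probe set intensity table for 6 arrays, made with RMA per the submitters' processing notes. The linear scale was read from the range of the values (1.55 to 6658). No RMA version was given in the sources used here. RMA corrects background, normalizes quantiles and summarises probes, and it compresses folds of dim probe sets. Log2 was taken without a pseudocount. Of 49293 probe sets, 44988 had 1 gene symbol, 1832 several and 2473 none. The probe set with the highest mean log2 value over 6 arrays stood for each gene, without a filter. Of the probe sets with several symbols, 4 held a symbol that matches the rule for members. PDE4C had only probe sets with several symbols, and PDE1A had no probe set with 1 symbol. Groups were compared with limma (version 3.58.1, R 4.3.3; lmFit, eBayes), with Benjamini-Hochberg adjustment over 18132 genes. Standard errors and 95% intervals come from that fit. It was also run on simulated data with independent noise. Those data held no deviating array such as control 2, so that run is no check of these intervals. No detection calls were used; the number of arrays limits the precision. Promoter sequences are RefSeq's (GRCh38.p14). Python 3.11.15 drew the figures.

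Members and lists were chosen with earlier results of these data known. Named genes were MAP4K5, called members, members with separate groups at or above the median gene, and the 5 brightest members. Up to 2 rises and 2 falls per list, or the smallest p, were named, with member probe sets that disagree. Other members are summarised. MC1R, GNAS, PRKACA, PRKACB, PKIG, PKIA, CD68, KRT1, KRT5, ABCC4, ADCY6, PDE1C, PDE7A, PDE6D and the dim members were named after their values were seen. Alternatives were the replicate block, an intensity trend, array weights, 2 normalizations, filters on dim genes, probe set rules and leaving out each array.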

Additional observations from a re-analysis of the deposited data

How the results depend on the processing

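Of the members, 2 were called higher and 1 lower. With 1 array left out, these counts ran from 0 to 4 and from 0 to 3, and the count over all genes, 1420, from 324 to 3732. Array weights gave 4 higher, 3 lower and 3103 genes in all. The mean of probe sets gave 0 higher and 0 lower (at an unadjusted p under 0.05, the fit on the brightest probe sets held 9 of 33 members, 27.3%, against 23.5% of all genes). The count of members called lower was 2 under the intensity trend, the repeated quantile normalization, the shift to a common median and without the lowest 25% of genes, since PDE9A passed there. Correlations of deviations between same-numbered arrays were -0.079, 0.022 and 0.06, and those between other arrays ran from -0.083 to 0.062. With 3 arrays per group, these values cannot settle whether replicate numbers pair the arrays. The fit with the replicate block called 1188 genes, with 2 members higher (PDE2A in, PDE8B out) and 2 lower. PDE8A turned to -0.02 and ADCY9 to -0.01 under the mean of probe sets, and PDE8A ran from -0.01 to 0.08 with 1 array left out, none of them called. The cause of these shifts was not tested. PDE8B and most other members lay below the median gene, which limits what these arrays show of them.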
